A study of Mus musculus with 72 samples.

Results

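The comparison described here is that of acetylated histone H3 (H3K27ac) in microglial nuclei of Sgsh knockout (SgshKO) and wild-type (WT) mice at 8 months of age. It rests on 4 of the 72 samples of the series, 2 labelled replicates of each genotype, chosen by cell type, antibody, genotype and age. All 4 came from brain of the C57BL/6 strain, and the deletion of Sgsh was the 1 labelled difference between the groups. Nuclei were sorted as positive for PU.1, a transcription factor of the myeloid lineage, and negative for OLIG2 and NEUN, which mark oligodendrocytes and neurons. Chromatin bound by an antibody against H3K27ac was sequenced (ChIP-seq), and unprecipitated chromatin of the same groups served as input. The 4-month libraries of both genotypes, 2 of each, entered the fit to share its estimate of the spread and are shown where the ages are compared. Pools of ChIP for the transcription factors MITF, TFEB and TFE3 from microglial nuclei of each genotype are described over the same windows. The labels do not say whether the replicates are separate animals, so p-values measure the spread between these samples, which may be technical. Which bases of Sgsh are missing in SgshKO is not stated in the labels, so the H3K27ac peak at the Sgsh start site does not check the genotype labels.

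Sgsh encodes sulfamidase, a lysosomal enzyme that removes sulfate groups from heparan sulfate, and its loss in humans causes the storage disease mucopolysaccharidosis type IIIA (Sanfilippo syndrome). H3K27ac is laid down by acetyltransferases at active promoters and enhancers, so its level at a site follows the regulatory activity of that site. Microglia, the resident macrophages of the brain, keep their identity through enhancers bound by PU.1 together with factors such as SALL1, MEF2 and SMAD proteins. In neurodegeneration they can take up a disease-associated state (DAM), known for lipid and lysosomal genes and for lower homeostatic genes. MITF, TFEB and TFE3 belong to the MiT-TFE family of basic helix-loop-helix factors, which enter the nucleus when lysosomal signalling through mTORC1 is reduced and bind the sequence CACGTG and its variants at lysosomal and autophagy genes. The Rag GTPases and the folliculin complex hold these factors at the lysosome.

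The promoters of 5 genes are shown because their start-site windows carried more H3K27ac in SgshKO. Each is the 250 bases upstream of the RefSeq start in build GRCm38.p6, 5′ to 3′ on the strand of the gene. Capitals mark matches to CACGTG, the core site of the MiT-TFE factors. Rragc (chr4:123917183-123917432, plus strand) and Fnip1 (chr11:54437929-54438178, plus strand) hold 1 match each, starting 112 and 75 bases before the start site. Rragd (chr4:32982748-32982997, plus strand), Apoe (chr7:19699189-19699438, minus strand) and Cst7 (chr2:150570165-150570414, plus strand) hold no such match in this window.
Rragc: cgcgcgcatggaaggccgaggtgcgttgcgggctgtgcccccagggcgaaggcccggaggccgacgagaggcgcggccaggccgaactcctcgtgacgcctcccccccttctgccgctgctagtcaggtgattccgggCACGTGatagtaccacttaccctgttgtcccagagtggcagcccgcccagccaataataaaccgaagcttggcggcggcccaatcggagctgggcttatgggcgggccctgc
Fnip1: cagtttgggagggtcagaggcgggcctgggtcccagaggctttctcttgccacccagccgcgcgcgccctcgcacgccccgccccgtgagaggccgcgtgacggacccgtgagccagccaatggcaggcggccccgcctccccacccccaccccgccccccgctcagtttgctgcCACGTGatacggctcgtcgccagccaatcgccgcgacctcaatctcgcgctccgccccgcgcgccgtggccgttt
Rragd: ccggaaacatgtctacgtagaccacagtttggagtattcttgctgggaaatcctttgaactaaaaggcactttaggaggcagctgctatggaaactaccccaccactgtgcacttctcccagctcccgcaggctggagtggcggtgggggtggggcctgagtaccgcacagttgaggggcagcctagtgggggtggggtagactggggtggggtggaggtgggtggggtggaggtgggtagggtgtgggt
Apoe: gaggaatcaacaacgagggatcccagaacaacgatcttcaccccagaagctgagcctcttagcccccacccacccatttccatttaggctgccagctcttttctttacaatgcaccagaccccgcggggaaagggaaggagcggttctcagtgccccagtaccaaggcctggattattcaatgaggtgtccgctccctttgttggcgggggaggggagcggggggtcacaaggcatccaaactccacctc
Cst7: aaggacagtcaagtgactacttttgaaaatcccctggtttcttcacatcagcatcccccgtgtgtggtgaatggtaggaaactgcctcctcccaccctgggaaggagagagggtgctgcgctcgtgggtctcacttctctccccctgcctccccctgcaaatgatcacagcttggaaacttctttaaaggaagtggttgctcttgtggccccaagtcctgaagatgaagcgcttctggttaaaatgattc

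Across all genes with a tested start-site peak and a RefSeq promoter, 8078 promoters were searched on both strands, of which 248 belonged to peaks called higher and 223 to peaks called lower. CACGTG was found in 12.1% of the promoters called higher, 7.62% of those called lower and 9.10% of the others, against 9.15% of all. The variant TCATGTG, which MITF also binds, was found in 10 higher promoters (4.03%) and in 1.65% of all. The AP-1 site TGANTCA was found in 6.45% of higher, 4.48% of lower and 3.94% of all promoters. The PU.1-type site GAGGAAGT was found in 2.82%, 3.59% and 2.66%. The CCAAT box was found in 26.6% of higher, 36.3% of lower and 35.6% of all promoters. None of the 5 motifs is part of another, and the median GC content was 60.0% in higher, 61.6% in lower and 60.8% in other promoters. These shares are descriptions of a few promoters in each group and were not tested.

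The 4 ChIP libraries held 12704756 to 15778229 tags. Tags in peaks made up 43.5% and 41.2% in WT, and 37.2% and 33.2% in SgshKO. In the inputs that share was 4.20% to 4.73%. One library stood apart at a sex-linked site: the Xist peak nearest the start of that gene, whose RNA silences an X chromosome, held 30.6 in WT replicate 1 and 1.44 in WT replicate 2, against 55.5 and 63.1 in SgshKO. That Xist peak was called higher in SgshKO (log2 change 2.78, limma FDR = 0.0174). A second, weaker Xist peak held 6.73 and 7.18 in WT and 2.16 and 1.94 in SgshKO, so that WT replicate 2 did not stand apart there. It was not called (limma FDR = 0.461). A peak of Erdr1 on the Y chromosome held 43.5 and 46.7 in WT and 17.3 and 15.5 in SgshKO and was called lower (limma FDR = 0.00412). Both WT libraries lay above both SgshKO libraries there, so leaving out WT replicate 2 does not remove that difference. Whether the signal in this window comes from the Y chromosome alone was not tested, so it is not read as a measure of sex. Another Erdr1 peak, where WT replicate 2 stood apart, held 9.18 and 152 in WT and 24.5 and 6.80 in SgshKO. It was not called (limma FDR = 0.207). The labels give no sex, and the part of these differences in the results was not tested. Counts or median changes over marker and gene lists, main classes of sites, leading genes and 1-Mb bins are therefore also given without WT replicate 2. Among defining microglial markers all 10 genes had tested peaks, and their summed signal was 39235 and 38372 in WT and 30528 and 32154 in SgshKO. Of their 216 peaks, 5 were called higher and 56 lower (25.9%), against 6.87% and 6.25% of all peaks, and without WT replicate 2 these counts were 1 and 18. Neuronal markers summed to 113 and 119.9 in WT and 106 and 105 in SgshKO, over the 7 peaks of the 4 genes of 13 that passed the filter. None of those neuronal peaks was called. The border-macrophage markers summed to 1128 and 1227 in WT and 1320.3 and 1306 in SgshKO, with 2 of 32 peaks called higher and 1 lower. Monocyte and neutrophil markers had 0 peaks higher and 4 of 12 lower, all at Plac8. Lymphocyte markers had 2 of 14 higher, both at Cd4. Endothelial and pericyte markers had 4 of 33 higher, at Flt1, and 8 lower, at Pecam1 and Cdh5. Oligodendrocyte markers had 3 of 35 higher and 3 lower, and astrocyte markers 1 of 21 and 3. Without WT replicate 2, the higher and lower counts were 1 and 1 for border macrophages, 0 and 1 for monocytes and neutrophils, 2 and 0 for lymphocytes, 4 and 4 for endothelium and pericytes, 0 and 0 for oligodendrocytes and 1 and 1 for astrocytes. In sorted nuclei, fewer cells of a type and less signal per cell cannot be told apart.

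Of the 91770 windows in the deposited table, each 800 bp wide, 69663 had enough tags to be tested. Levels are TMM-scaled tags per 10M, and a peak was called when limma's adjusted p (Benjamini-Hochberg false discovery rate, FDR) over all tested peaks was below 0.05. SgshKO nuclei carried more H3K27ac at 4784 peaks (6.87% of those tested) and less at 4351 (6.25%), or 13.1% in all. The 2 sides differed in size. Peaks called higher went from a median level of 22 in WT to 67.4 in SgshKO, with a median log2 change of 1.46, and 3701 of them (77.4%) changed at least 2-fold. Peaks called lower went from 116 to 59.6, with a median log2 change of −0.91, and 1836 (42.2%) changed at least 2-fold. An 8-fold change was reached by 315 higher and 32 lower peaks. Over all tested peaks the median WT level was 28.9, between the medians of peaks called higher and lower. The WT level is part of the contrast that made the calls. The differences in WT level and in size of change can thus follow in part from the calling and are descriptions. The WT mean was under 5 at 618 higher peaks (12.9%). The nearest genes numbered 2059 for higher and 1985 for lower peaks, of 14355 with a tested peak, and 259 genes had both.

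**Figure D1:**
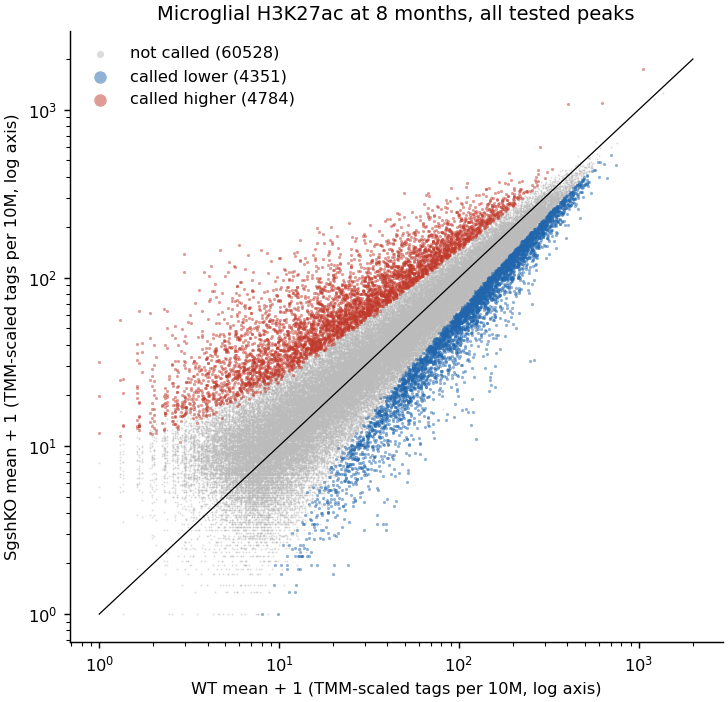
Mean H3K27ac level of each tested peak in WT (x axis) and SgshKO (y axis) at 8 months, in TMM-scaled tags per 10M plus 1 on log axes; called peaks are coloured by direction and the line marks equal levels. The median WT level was 22 for peaks called higher and 116 for peaks called lower.

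The balance of directions moved with the scaling, while the direction of single called peaks seldom did. When tags were scaled by library total, which moved the median log2 change of all peaks by −0.22, 2783 peaks were called higher and 6354 lower. Changes are therefore also given below relative to the median of all tested peaks. Without WT replicate 2, 2704 peaks were called higher and 1250 lower, and 2633 and 1234 of the original calls were kept. Without WT replicate 1 the counts were 2712 and 1684, and without SgshKO replicate 2 they were 3104 and 2947. Of the 9135 called peaks, 8 changed sign after input subtraction and 0 in each of the other 14 alternatives, and none was called in the other direction. The libraries of both genotypes did not overlap at 4783 higher and 4346 lower peaks, against 54.9% of all tested peaks. In the inputs, limma called 0 of 39323 tested windows, and 745 windows had an unadjusted p below 0.05. Neither edgeR nor DESeq2 called an input window.

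By count, called peaks made up a larger share of windows away from start sites. Of 19909 tested peaks within 1 kb of a start site, 761 (3.82%) were called higher and 709 (3.56%) lower. Of the 32317 peaks over 10 kb away, 2792 (8.64%) were higher and 2452 (7.59%) lower. The share of higher peaks was 7.06% at 1 to 10 kb, 8.48% at 10 to 50 kb, 8.66% at 50 to 100 kb and 9.55% beyond 100 kb. The share of lower peaks over the same distances was 6.83%, 6.996%, 8.08% and 10.2%. In the deposited annotation, intergenic peaks were called higher in 9.54% and lower in 7.61% of 18251, and intronic peaks in 7.09% and 6.73% of 32430. Peaks annotated as promoters were called higher in 3.40% and lower in 3.26% of 13805. Exonic peaks were called higher in 5.02% and lower in 6.07% of 1812, and peaks in 3′ UTRs in 6.02% and 8.85% of 881. Peaks on the X chromosome, where WT replicate 2 stood apart at Xist, were called higher in 2.36% and lower in 4.80% of 1104. Without WT replicate 2, 1.80% of peaks within 1 kb were higher and 1.05% lower, and 5.13% and 2.12% of those over 10 kb away. Intergenic peaks were then higher in 5.97% and lower in 2.29%, intronic peaks in 3.94% and 1.90%, promoter peaks in 1.48% and 0.913%, and exonic peaks in 2.54% and 1.43%. On the X chromosome these shares were 0.634% and 0.815%, and in 3′ UTRs 2.61% and 2.38%, so that lower calls no longer outnumbered higher ones among exonic and 3′ UTR peaks. Shares by class are descriptions, since neighbouring windows are not independent.

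The overlap of changed sites with the peaks of other brain cells was counted as a description. Windows with centres within 400 bp of a peak of the neuronal table made up 64.1% of higher, 59.4% of lower and 78.7% of uncalled peaks within 1 kb of a start site. For the oligodendrocyte table these shares were 56.0%, 56.6% and 75.4%. Beyond 10 kb the neuronal shares were 16.2%, 13.1% and 17.5%, and the oligodendrocyte shares 14.5%, 10.97% and 15.4%. These differences in share were not tested.

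The promoter peaks (within 1 kb of a start site, on either side) with the strongest evidence of gain lay at genes of transcription, organelle traffic, chemotaxis and protease control. The peak 609 bp from the start of Bhlhe40, a basic helix-loop-helix repressor of transcription, on chr6:108659620-108660420 held 18.4 and 12.2 in WT and 186 and 209.7 in SgshKO (log2 change 3.63, SE 0.30, limma FDR = 6.73e-11). The peak of Adap1, a GTPase-activating protein for Arf proteins, on chr5:139324654-139325454 held 71.0 and 54.6 in WT and 257 and 287 in SgshKO (log2 change 2.11, SE 0.19, limma FDR = 6.06e-10). At Myo5a, a myosin motor that carries organelles along actin, the window on chr9:75071071-75071871 held 15.3 and 7.18 in WT and 143 and 122 in SgshKO (log2 change 3.53, SE 0.34, limma FDR = 2.04e-09). In each of these 3 windows both SgshKO libraries lay above both WT libraries by over 3-fold. The Ccl3 peak on chr11:83648057-83648857, at the gene of a chemokine that attracts leukocytes, held 68.6 and 71.8 in WT and 268 and 237 in SgshKO (log2 change 1.83, SE 0.19, limma FDR = 5.22e-09). It lies 921 bp from the start site, in intron 2. A Ccl3 window closer to the start site held 94.9 and 124 in WT and 135 and 184 in SgshKO. That closer window was not called (log2 change 0.54, limma FDR = 0.0770). Cd63, a tetraspanin of late endosomes and lysosomes, held 90.0 and 77.6 in WT and 280.4 and 301 in SgshKO on chr10:128909841-128910641 (log2 change 1.79, SE 0.18, limma FDR = 6.05e-09). Cst7, which encodes cystatin F, an inhibitor of lysosomal cathepsins, held 8.57 and 13.6 in WT and 85.8 and 132 in SgshKO on chr2:150569877-150570677 (log2 change 3.18, SE 0.33, limma FDR = 1.01e-08). The Cst7 gain was carried by both SgshKO libraries, although they differed from each other more than those of Ccl3 or Cd63. All 6 were called in every alternative, each library left out in turn included.

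The 6 promoter peaks with the strongest evidence of loss started from higher WT levels than the 6 gains. Kcnk12, a gene of the tandem-pore potassium channel family, held 165 and 172 in WT and 32.4 and 40.8 in SgshKO on chr17:87796787-87797587 and fell by 2.18 on the log2 scale (SE 0.25, limma FDR = 3.81e-08). Tmem176b, a membrane protein of myeloid cells, held 107 and 111 in WT and 22.3 and 8.74 in SgshKO on chr6:48840153-48840953 and fell by 2.86 on the log2 scale (SE 0.34, limma FDR = 1.06e-07). Cdk2ap1, a cell-cycle regulator that associates with CDK2 and with the NuRD complex, held 150.0 and 157 in WT and 46.8 and 38.8 in SgshKO on chr5:124353415-124354215 and fell by 1.82 on the log2 scale (SE 0.23, limma FDR = 2.75e-07). This window lies 813 bp from the start site, in intron 1. A Cdk2ap1 window closer to the start site held 49.6 and 37.3 in WT and 41.8 and 15.5 in SgshKO. That closer window was not called (log2 change −0.73, limma FDR = 0.246). In the called windows of Kcnk12, Tmem176b and Cdk2ap1 the WT libraries lay close together. The SD was 4.49 in WT and 5.90 in SgshKO at Kcnk12, 2.88 and 9.62 at Tmem176b, and 5.15 and 5.66 at Cdk2ap1. Arhgef40, an exchange factor for small GTPases, held 212 and 185 in WT and 76.4 and 65.0 in SgshKO and fell by 1.48 on the log2 scale (SE 0.19, limma FDR = 4.81e-07). Tm6sf1, a transmembrane protein, held 305 and 299 in WT and 139.8 and 121 in SgshKO and fell by 1.21 on the log2 scale (SE 0.16, limma FDR = 4.85e-07). Mroh2a held 241 and 219.7 in WT and 75.7 and 109 in SgshKO and fell by 1.33 on the log2 scale (SE 0.19, limma FDR = 3.94e-06). The calls of the first 5 held in every alternative, while that of Mroh2a was lost when limma was fitted with no mean trend (FDR = 0.0504).

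**Figure D2:**
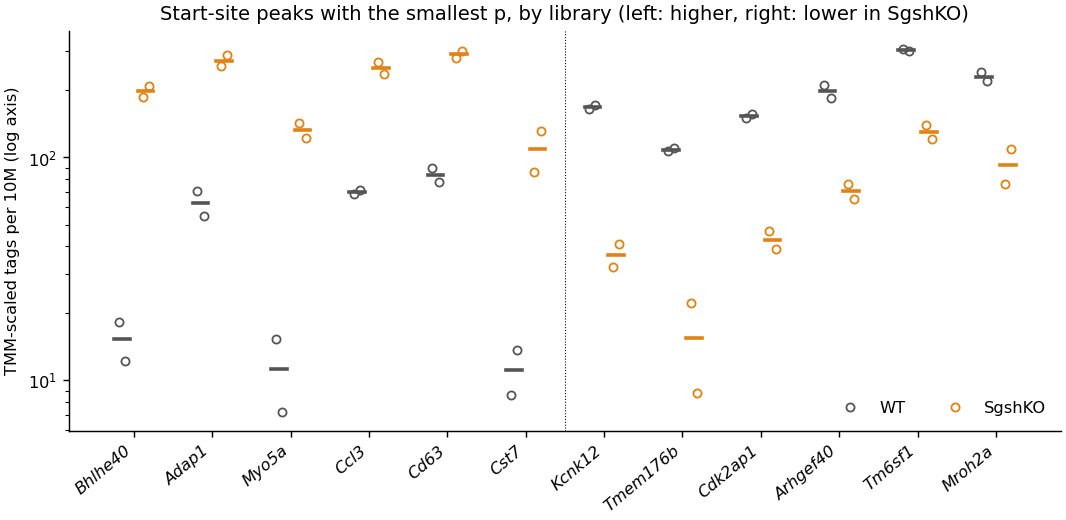
H3K27ac level (TMM-scaled tags per 10M, log axis) in each of the 4 libraries at the 6 promoter peaks called higher and the 6 called lower with the smallest p; points are libraries and colours are genotypes. The 12 peaks run from Bhlhe40 (18.4 and 12.2 in WT) to Mroh2a (75.7 and 109 in SgshKO). They were chosen among called peaks whose WT and SgshKO libraries do not overlap, so the lack of overlap is no result. The libraries did not overlap at 54.9% of all tested peaks.

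Distal peaks, over 10 kb from a start site, included changes from near absence. They are named by the nearest gene in the deposited annotation, which need not be the gene they act on. The window on chr2:179649186-179649986, 207155 bp from the start of Cdh4 (R-cadherin) and in an intron, held 2.45 and 1.44 in WT and 137 and 139.8 in SgshKO (log2 change 5.59, SE 0.49, limma FDR = 2.12e-10). It rested on 6 WT tags against 334, a ratio per library total of 59.9 with an exact 95% interval of 27.2 to 164. Such intervals cover counting error only. The site was nearly empty in WT and a strong peak in both SgshKO libraries. The window 58587 bp from Tpra1 on chr6:88960438-88961238 held 0.612 and 0 in WT and 54.1 and 56.3 in SgshKO, from 1 WT tag and 133 SgshKO tags, a ratio of 143 (interval 25.2 to 5690.4, limma FDR = 5.70e-08). The window nearest Uqcr10, a subunit of respiratory complex III, on chr11:4675811-4676611 held 2.45 and 1.44 in WT and 106 and 108 in SgshKO (log2 change 5.22, SE 0.50, limma FDR = 1.47e-09). Slc11a2 encodes a transporter that moves iron and other divalent metals across the endosomal membrane. Its window on chr15:100403114-100403914, 19541 bp from the start site, held 4.90 and 6.46 in WT and 134 and 138 in SgshKO (log2 change 4.37, SE 0.35, limma FDR = 4.17e-11). A window nearest Eif1a, a translation initiation factor, held 3.06 and 3.59 in WT and 87.9 and 77.7 in SgshKO (log2 change 4.28, SE 0.54, limma FDR = 3.71e-07). All 5 were called in every alternative.

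Among distal losses, no site changed by more than 3.14 on the log2 scale among those chosen by the same rule. The window 140581 bp from Trim33, a ubiquitin ligase and cofactor of SMAD signalling, on chr3:103419474-103420274 held 129.8 and 107 in WT and 6.49 and 23.3 in SgshKO and fell by 3.14 on the log2 scale (SE 0.36, limma FDR = 4.88e-08). The window near Bcat1, an aminotransferase of branched-chain amino acids, on chr6:145036388-145037188 held 63.7 and 63.9 in WT and 5.04 and 9.71 in SgshKO and fell by 3.01 on the log2 scale (SE 0.42, limma FDR = 1.97e-06). Its call was lost after subtraction of the inputs (FDR = 0.0522). Near Ifitm10, of the interferon-induced transmembrane family, the window on chr7:142359288-142360088 held 36.7 and 63.9 in WT and 7.21 and 2.91 in SgshKO and fell by 3.13 on the log2 scale (SE 0.54, limma FDR = 7.23e-05). Near Kbtbd12 the window on chr6:88606171-88606971 held 60.6 and 81.9 in WT and 2.88 and 17.5 in SgshKO and fell by 3.08 on the log2 scale (SE 0.51, limma FDR = 3.25e-05). In these last 2 windows the spread within a genotype was wide, and both calls were lost with no mean trend (FDR = 0.0600 and 0.0940). The window nearest Cdk5rap3 held 258 and 260.0 in WT and 35.3 and 27.2 in SgshKO and fell by 3.02 on the log2 scale (SE 0.26, limma FDR = 9.68e-11).

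Genes of the disease-associated state gained H3K27ac at many of their peaks. Over the 30 genes of that list, 112 of 266 tested peaks were called higher and 5 lower (42.1% and 1.88%), against 6.87% and 6.25% of all peaks, and the median log2 change stood 0.71 above that of all tested peaks. A higher peak was present at 23 genes and a lower one at 5. The counts were 78 and 8 under scaling by library total and 80 and 1 without WT replicate 2. Lists were drawn up with results of these data known, so their counts describe them and are no independent evidence. Every tested peak of Cd63 (6 of 6), Cst7 (3 of 3), Clec7a (2 of 2) and Spp1 (2 of 2) was called higher. Most were higher at Ch25h (7 of 8), an enzyme that makes an oxysterol, Apoe (5 of 6), Igf1 (4 of 5) and Lyz2 (4 of 5), the gene of lysozyme. Cd9 (13 of 41), a tetraspanin, and Ctsd (10 of 23), a lysosomal protease, had the most higher peaks in number.

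At the start sites of DAM genes the size of the gain differed widely. Apoe, the lipid-carrying apolipoprotein, held 40.4 and 16.5 in WT and 194 and 156 in SgshKO on chr7:19698751-19699551 (log2 change 2.70, SE 0.29, limma FDR = 1.45e-08). Axl, a receptor for phosphatidylserine-bridging ligands on dying cells, held 5.51 and 8.62 in WT and 52.6 and 60.2 in SgshKO on chr7:25788345-25789145 (log2 change 2.86, SE 0.40, limma FDR = 2.30e-06). Clec7a, a receptor for fungal glucans, held 20.8 and 22.3 in WT and 61.3 and 80.6 in SgshKO on chr6:129472391-129473191 (log2 change 1.66, SE 0.31, limma FDR = 0.000217). These 3 gains were called in every alternative. Igf1, a growth factor, held 10.4 and 4.31 in WT and 46.1 and 74.8 in SgshKO (log2 change 2.94, SE 0.57, limma FDR = 0.000314), and its call was lost after input subtraction (FDR = 0.0549) and with no mean trend (FDR = 0.135). Trem2, the lipid-sensing receptor of microglia, held 272 and 322 in WT and 335 and 290.3 in SgshKO at its start site, where the libraries overlapped (log2 change 0.08, limma FDR = 0.789), and none of its 4 peaks was called. The sign of the Trem2 change turned under scaling by library total (−0.15). The start-site peak of Ctsd, which gained at 10 other peaks, held 181 and 176 in WT and 223 and 197 in SgshKO, and was not called (limma FDR = 0.391).

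**Figure D3:**
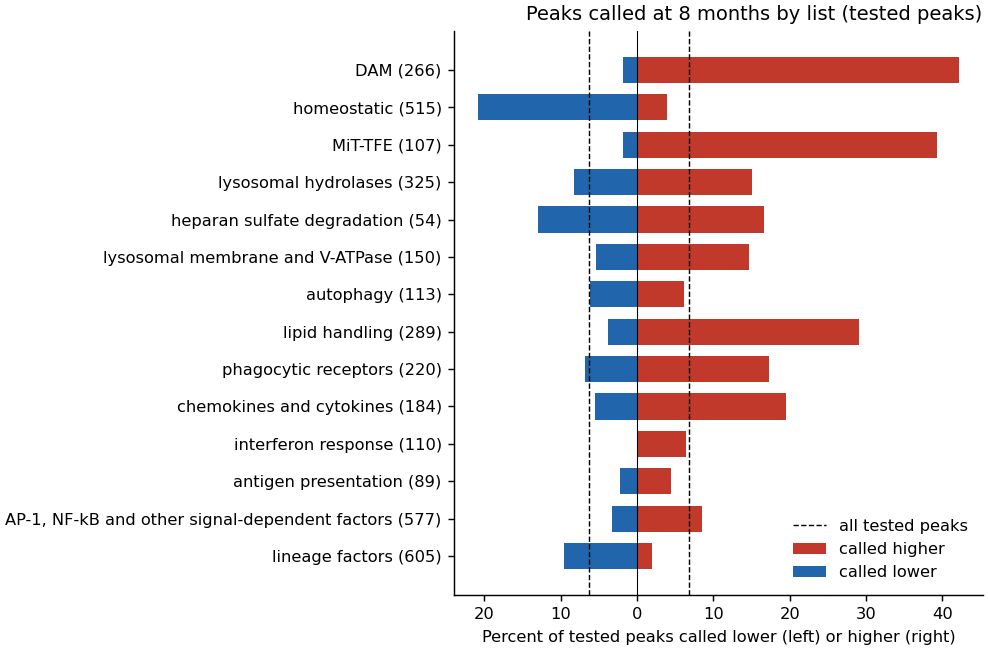
Share of tested peaks called higher and lower in SgshKO at 8 months for each gene list, in percent, with the share over all tested peaks marked. The DAM list (42.1% higher) and the MiT-TFE list (39.3% higher) lie farthest to the higher side of the 14 lists drawn, and the homeostatic list (20.8% lower) farthest to the lower side.

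Lipid-handling genes showed a similar tilt, with exceptions in cholesterol export. Over this list 84 of 289 tested peaks were called higher and 11 lower (29.1% and 3.81%, against 6.87% and 6.25% of all peaks). These calls lay at 19 and 4 of 31 genes, and the median log2 change of the list stood 0.43 above that of all peaks. Scaling by library total gave 60 and 14, and leaving out WT replicate 2 gave 52 and 2. Both enzymes that free cholesterol from esters gained widely: Nceh1 at 10 of 11 peaks and Lipa, the lysosomal acid lipase, at 9 of 10. The strongest Nceh1 window, on chr3:27191603-27192403, held 17.1 and 15.8 in WT and 184 and 179 in SgshKO (log2 change 3.39, SE 0.27, limma FDR = 3.85e-11). Soat1, which makes cholesterol esters, was higher at 4 of 5 peaks, and Pparg, a nuclear receptor of lipid metabolism, at 4 of 11. Rxra, the partner of such receptors, was higher at 9 of 45, with 49.6 and 47.4 in WT and 307 and 327 in SgshKO on chr2:27728297-27729097 (log2 change 2.68, SE 0.22, limma FDR = 4.17e-11). A second Rxra window on chr2:27763205-27764005 went the other way, from 132 and 112 in WT to 67.0 and 50.5 in SgshKO, and fell by 1.05 on the log2 scale (SE 0.25, limma FDR = 0.00330). The call was lost with no mean trend (FDR = 0.123), without WT replicate 1 (FDR = 0.0855) and without SgshKO replicate 2 (FDR = 0.0693).

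The cholesterol exporters Abca1 and Abcg1 were called in opposite directions. Abca1 was higher at 17 of 30 peaks (5 without WT replicate 2) and lower at none, but its start-site peak held 147 and 151 in WT and 134 and 150.5 in SgshKO and was not called (limma FDR = 0.867). Abcg1 was lower at 8 of 22 peaks and higher at none. The strongest Abcg1 loss, on chr17:31075319-31076119, went from 193 and 219.7 in WT to 111 and 117 in SgshKO, and fell by 0.85 on the log2 scale (SE 0.18, limma FDR = 0.000747), a call lost with no mean trend (FDR = 0.0784). At start sites, Apoc1, an apolipoprotein gene next to Apoe, held 23.3 and 21.5 in WT and 95.1 and 79.6 in SgshKO (log2 change 1.91, SE 0.29, limma FDR = 1.20e-05). Fabp5, a fatty-acid carrier, held 7.96 and 7.18 in WT and 49.7 and 34.95 in SgshKO (log2 change 2.32, SE 0.50, limma FDR = 0.00121). Plin2, a coat protein of lipid droplets, held 30.6 and 30.2 in WT and 60.54 and 92.2 in SgshKO (log2 change 1.27, SE 0.30, limma FDR = 0.00260). Of these 3, only the Plin2 call was lost in an alternative, with no mean trend (FDR = 0.0621) and without SgshKO replicate 2 (FDR = 0.0824).

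Genes of the MiT-TFE factors and of the Rag GTPase and folliculin machinery that controls them were among the lists with most gain. Over this list 42 of 107 tested peaks were called higher and 2 lower (39.3% and 1.87%, against 6.87% and 6.25% of all peaks). The median log2 change stood 0.72 above that of all peaks. Under scaling by library total the counts were 27 and 2, and without WT replicate 2 they were 27 and 0. The gain was concentrated in few genes: 7 of 13 had a higher peak, led by Fnip2 (15 of 20), a partner of folliculin, Tfeb (10 of 26) and Mitf (8 of 14). Rragd, one of the Rag GTPases, went from almost no signal to a clear peak at its start site, with 0 and 1.44 in WT and 40.4 and 30.1 in SgshKO on chr4:32982470-32983270. That is 2 WT tags against 87 SgshKO tags, a ratio of 46.8 (exact 95% interval 12.6 to 392.3, limma FDR = 5.22e-06). All 3 tested Rragd peaks were called higher, and the call at the start site held in every alternative. Its paralog Rragc started from 91.2 and 109.9 in WT and held 146 and 165 in SgshKO (log2 change 0.63, SE 0.21, limma FDR = 0.0413). The Rragc call was lost in 9 of 15 alternatives, among them scaling by library total (FDR = 0.311) and leaving out WT replicate 1 (FDR = 0.327).

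Both folliculin-interacting proteins gained at their start sites, Fnip2 more than Fnip1. Fnip2 held 59.4 and 61.8 in WT and 154 and 152 in SgshKO on chr3:79567432-79568232 (log2 change 1.33, SE 0.21, limma FDR = 1.40e-05), called in every alternative. Its strongest window, on chr3:79539435-79540235, held 31.8 and 20.8 in WT and 139.8 and 132 in SgshKO (log2 change 2.35, SE 0.27, limma FDR = 5.12e-08). Fnip1 held 73.5 and 64.6 in WT and 128 and 115 in SgshKO at its start site (log2 change 0.80, SE 0.24, limma FDR = 0.0189), while another of its windows, on chr11:54464697-54465497, went from 87.5 and 113 in WT to 42.5 and 40.8 in SgshKO and fell by 1.24 on the log2 scale (SE 0.26, limma FDR = 0.00103). The call of that loss was itself lost with no mean trend (FDR = 0.0592) and without WT replicate 2 (FDR = 0.0760). The Fnip1 start-site call was lost in 6 alternatives, with FDR of 0.0689 to 0.185. Of the factors themselves, Mitf held 47.7 and 38.8 in WT and 77.8 and 97.1 in SgshKO at the start site nearest a peak (log2 change 1.00, SE 0.27, limma FDR = 0.00921). The Mitf call was lost with no mean trend (FDR = 0.0708), under scaling by library total (FDR = 0.0887), with input subtracted (FDR = 0.0639), without WT replicate 2 (FDR = 0.136) and without SgshKO replicate 2 (FDR = 0.103). Tfeb held 124 and 116 in WT and 125 and 128 in SgshKO at its start site, not called (limma FDR = 0.864), but 85.1 and 84.0 in WT and 244 and 271 in SgshKO on chr17:47756307-47757107 (log2 change 1.59, SE 0.18, limma FDR = 6.96e-08). None of the 5 peaks of Tfe3 or the 2 of Flcn, which encodes folliculin, was called.

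Lysosomal hydrolases, the acid enzymes that break down lipids, sugars and proteins, changed in both directions. Over this list 49 of 325 tested peaks were called higher and 27 lower (15.1% and 8.31%, against 6.87% and 6.25% of all peaks). The median log2 change stood 0.18 above that of all peaks. The counts were 21 and 34 under scaling by library total and 24 and 7 without WT replicate 2. Under scaling by library total, lower calls outnumbered higher ones over all peaks too (6354 and 2783). The median of the list still stood 0.19 above that of all peaks. Gains were concentrated at Ctsd (10 of 23), Lipa (9 of 10) and Ctsb (7 of 15), and losses at Naglu (6 of 11) and Psap (6 of 36), the precursor of sphingolipid activator proteins. Psap had as many higher peaks as lower ones. The peaks of Ctsd and Ctsb are also counted in the DAM list, and those of Lipa in the lipid-handling list. These gains are therefore not separate from those given above. A Ctsd window on chr7:142383331-142384131 held 74.1 and 66.1 in WT and 193 and 154 in SgshKO (log2 change 1.29, SE 0.20, limma FDR = 1.49e-05). Ctsb, a cathepsin, changed both ways within its own neighbourhood, with 115 and 83.3 in WT and 226 and 229 in SgshKO on chr14:63130462-63131262 (log2 change 1.21, SE 0.19, limma FDR = 1.18e-05) and a loss from 318 and 290.1 in WT to 186 and 226 in SgshKO on chr14:63128808-63129608, where it fell by 0.57 on the log2 scale (SE 0.14, limma FDR = 0.00608). The Ctsb loss was not called with no mean trend (FDR = 0.190), without WT replicate 1 (FDR = 0.110) and without SgshKO replicate 1 (FDR = 0.126).

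Of 32 hydrolase genes with a peak within 1 kb of the start, 5 had that peak called higher and 1 lower, against 3.82% and 3.56% of all peaks within 1 kb. Those of Ctsb, Ctsl and Ctsz were not called (limma FDR = 0.0981, 0.486 and 0.843). Hexa, the alpha subunit of beta-hexosaminidase, held 213 and 188 in WT and 293 and 309.7 in SgshKO at its start site (log2 change 0.59, SE 0.15, limma FDR = 0.00742). The Hexa call was lost under scaling by library total (FDR = 0.271), without WT replicate 2 (FDR = 0.112), without SgshKO replicate 2 (FDR = 0.0591) and with no mean trend (FDR = 0.212). Gaa, the acid alpha-glucosidase that degrades glycogen, held 29.4 and 14.4 in WT and 54.8 and 54.4 in SgshKO at its start site (log2 change 1.36, SE 0.36, limma FDR = 0.00869). The Gaa call was lost with no mean trend (FDR = 0.0952), with input subtracted (FDR = 0.0776) and without WT replicate 2 (FDR = 0.273).

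In the heparan sulfate pathway to which Sgsh belongs, a single gene held most of the gain. Over the 8 genes with tested peaks, 9 of 54 tested peaks were called higher and 7 lower (16.7% and 12.96%, against 6.87% and 6.25% of all peaks). Under scaling by library total the counts were 6 and 7. The median log2 change stood 0.17 above that of all peaks, and 0.13 above it without WT replicate 2. Most of the 7 lower calls were lost without that library, as were most lower calls over all peaks. Hpse encodes heparanase, the endoglycosidase that cuts heparan sulfate chains into fragments before the exoenzymes act, and all 6 of its tested peaks were called higher. The Hpse window on chr5:100709840-100710640 held 6.73 and 7.18 in WT and 139 and 153 in SgshKO (log2 change 4.21, SE 0.35, limma FDR = 5.25e-11). At its start site, on chr5:100719333-100720133, Hpse held 7.35 and 5.03 in WT and 79.3 and 86.4 in SgshKO (log2 change 3.56, SE 0.51, limma FDR = 3.48e-06). Both were called in every alternative, and both WT libraries were nearly empty there. Naglu, the exoenzyme that removes N-acetylglucosamine from the chain, had 6 lower and 1 higher of 11 peaks. The strongest of these losses lay 13123 bp upstream of the Naglu start site, in an intron of another transcript, on chr11:101056571-101057371. It went from 75.3 and 82.6 in WT to 29.5 and 22.3 in SgshKO and fell by 1.58 on the log2 scale (SE 0.30, limma FDR = 0.000303). The call was lost after input subtraction (FDR = 0.226). The 1 gain of Naglu went from 79.6 and 73.2 in WT to 127 and 163 in SgshKO on chr11:101070223-101071023 (log2 change 0.91, SE 0.23, limma FDR = 0.00639). That call was lost with no mean trend (FDR = 0.176), under scaling by library total (FDR = 0.105), without WT replicate 2 (FDR = 0.0723) and without SgshKO replicate 2 (FDR = 0.107). A window of Arsg, a sulfatase of the pathway, went from 20.2 and 18.7 in WT to 2.88 and 5.83 in SgshKO and fell by 1.99 on the log2 scale (SE 0.60, limma FDR = 0.0217). The Arsg call was lost with input subtracted (FDR = 0.152), without WT replicate 1 (FDR = 0.196), without WT replicate 2 (FDR = 0.171) and without SgshKO replicate 1 (FDR = 0.133). The start-site peak of Sgsh itself held 115 and 94.8 in WT and 112 and 145 in SgshKO, with overlapping libraries (limma FDR = 0.427).

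The lysosomal membrane and its proton pump, the V-ATPase, showed more gains than losses. Over this list 22 of 150 tested peaks were called higher and 8 lower (14.7% and 5.33%, against 6.87% and 6.25% of all peaks). The median stood 0.31 above that of all peaks. The counts were 12 and 9 under scaling by library total and 14 and 2 without WT replicate 2. Besides Cd63, gains lay at Atp6v0c (4 of 8), a subunit of the membrane ring of the pump, Atp6v1a (3 of 5), its catalytic subunit, and Atp6v1c1 (3 of 11). The Atp6v1a window on chr16:44119573-44120373 held 36.7 and 33.8 in WT and 151 and 160.2 in SgshKO (log2 change 2.11, SE 0.32, limma FDR = 8.46e-06), a call lost only with no mean trend (FDR = 0.0727). Atp6v1c1 held 93.1 and 62.5 in WT and 135 and 152 in SgshKO at its start site (log2 change 0.91, SE 0.22, limma FDR = 0.00394), a call lost under scaling by library total (FDR = 0.0796), without WT replicate 2 (FDR = 0.166) and with no mean trend (FDR = 0.134). Windows nearest other subunits went down. That of Atp6v1b2, on chr8:69005609-69006409 and 82727 bp from the start site, went from 184 and 178 in WT to 91.5 and 121 in SgshKO. It fell by 0.77 on the log2 scale (SE 0.18, limma FDR = 0.00291). Its call was lost without SgshKO replicate 1 (FDR = 0.0862) and with no mean trend (FDR = 0.118). Atp6ap2, an accessory protein on the X chromosome, went from 60.0 and 61.8 in WT to 20.2 and 30.1 in SgshKO and fell by 1.27 on the log2 scale (SE 0.30, limma FDR = 0.00321). The Atp6ap2 call was lost with no mean trend (FDR = 0.0645), with input subtracted (FDR = 0.0750), without WT replicate 2 (FDR = 0.0608) and without SgshKO replicate 1 (FDR = 0.0622).

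Autophagy genes as a group stood near the background. Here 7 of 113 tested peaks were called higher and 7 lower (6.19% and 6.19%, against 6.87% and 6.25% of all peaks), and the median log2 change differed from that of all peaks by −0.00330. Under scaling by library total the counts were 4 and 9, and without WT replicate 2 they were 4 and 1. Single sites stood out. Sqstm1, the cargo receptor p62, held 30.6 and 27.3 in WT and 189.5 and 163 in SgshKO on chr11:50212779-50213579 (log2 change 2.56, SE 0.27, limma FDR = 8.30e-09). Atg7, the activating enzyme of both autophagy conjugation systems, held 6.12 and 5.75 in WT and 49.0 and 43.7 in SgshKO on chr6:114644304-114645104 (log2 change 2.77, SE 0.47, limma FDR = 5.40e-05). These 2 were called in every alternative. Gabarapl2, of the LC3 family, went from 61.2 and 53.9 in WT to 17.3 and 21.4 in SgshKO and fell by 1.53 on the log2 scale (SE 0.35, limma FDR = 0.00190), a call lost without WT replicate 1 (FDR = 0.0553) and with no mean trend (FDR = 0.0570). Ulk2, a kinase that starts autophagy, went from 71.6 and 85.5 in WT to 36.8 and 30.1 in SgshKO and fell by 1.21 on the log2 scale (SE 0.29, limma FDR = 0.00313), a call lost without WT replicate 2 (FDR = 0.100) and with no mean trend (FDR = 0.0640).

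Homeostatic microglial genes lost H3K27ac, by smaller steps from higher levels. Over the 22 genes, 20 of 515 tested peaks were called higher and 107 lower (3.88% and 20.8%, against 6.87% and 6.25% of all peaks). The median log2 change stood 0.23 below that of all peaks. Scaling by library total gave 11 and 133, and leaving out WT replicate 2 gave 12 and 46. The summed level of the list was 71281 and 68999 in WT and 55976 and 58738 in SgshKO. Losses were concentrated at Sall1 (24 of 57), the transcription factor of microglial identity, Selplg (19 of 22), a ligand of P-selectin, and Tmem119 (10 of 19). A loss was also called at 5 of 18 peaks of P2ry13 and 3 of 9 of P2ry12, both purinergic receptors, and at 5 of 17 of Csf1r, the receptor on which microglia depend for survival. The strongest Selplg window went from 329 and 364 in WT to 127 and 169.9 in SgshKO on chr5:113839664-113840464 and fell by 1.23 on the log2 scale (SE 0.15, limma FDR = 2.76e-07), called in every alternative. The strongest Sall1 window went from 321 and 373 in WT to 168 and 188 in SgshKO on chr8:89285997-89286797, 242235 bp from the start, and fell by 0.96 on the log2 scale (SE 0.14, limma FDR = 3.80e-06), a call lost only with no mean trend (FDR = 0.0640).

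Losses at the start sites of these genes stayed under 1 on the log2 scale, and not all start sites were called. Selplg went from 409.5 and 329.6 in WT to 227 and 251 in SgshKO at its start and fell by 0.62 on the log2 scale (SE 0.14, limma FDR = 0.00145). That call was lost with no mean trend (FDR = 0.186) and without WT replicate 1 (FDR = 0.103). Sall1 went from 389 and 363 in WT to 261 and 320.4 in SgshKO and fell by 0.38 on the log2 scale (SE 0.13, limma FDR = 0.0403), a call lost in 9 of 15 alternatives, with FDR of up to 0.407. Csf1r went from 346 and 312 in WT to 215 and 213 in SgshKO and fell by 0.62 on the log2 scale (SE 0.14, limma FDR = 0.00228), a call lost without WT replicate 1 (FDR = 0.0642) and with no mean trend (FDR = 0.182). P2ry12 held 353 and 391 in WT and 240.0 and 342 in SgshKO at its start site and was not called (limma FDR = 0.0868), but was called lower under scaling by library total (FDR = 0.0259) and without SgshKO replicate 2 (FDR = 0.0140). Spi1, the gene of PU.1, on which the nuclei were sorted, was not called, with 421 and 361 in WT and 312 and 333 in SgshKO (log2 change −0.27, limma FDR = 0.143). A few members of the list gained. An intergenic window nearest Jun, an AP-1 subunit, lay 160574 bp from its start site on chr4:95212396-95213196. It held 17.8 and 13.6 in WT and 85.0 and 103 in SgshKO (log2 change 2.51, SE 0.31, limma FDR = 2.76e-07). Fcrls, an Fc-receptor-like microglial gene, held 61.2 and 41.7 in WT and 113 and 122 in SgshKO (log2 change 1.20, SE 0.24, limma FDR = 0.000457), a call lost with no mean trend (FDR = 0.0626). It had 3 of 12 peaks higher and none lower.

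Lineage factors and the TGF-beta pathway that maintains microglia had more lower than higher calls, with Sall1, also in the homeostatic list, holding the most. Over this list 12 of 605 tested peaks were called higher and 58 lower (1.98% and 9.59%, against 6.87% and 6.25% of all peaks), with a median 0.06 below that of all peaks. Sall1 held 24 of the lower calls, and without it 34 of 548 peaks were lower (6.20%), near the share of all peaks. Under scaling by library total the counts were 2 and 80, and without WT replicate 2 they were 12 and 15. Outside Sall1, lower calls no longer outnumbered higher ones when WT replicate 2 was left out. Smad3, the transducer of TGF-beta signals, was lower at 7 of 41 peaks, and the strongest of them, on chr9:63737848-63738648, went from 264 and 243 in WT to 134 and 134 in SgshKO and fell by 0.91 on the log2 scale (SE 0.16, limma FDR = 6.81e-05). Tgfbr1 was lower at 4 of 36 and Mef2c at 4 of 30 peaks. Tgfbr2, the other receptor chain, changed both ways, with 3 higher and 2 lower of 47. Its strongest gain held 94.3 and 111 in WT and 177 and 176 in SgshKO (log2 change 0.78, SE 0.18, limma FDR = 0.00224). The Tgfbr2 call was lost with no mean trend (FDR = 0.0930), under scaling by library total (FDR = 0.115) and without WT replicate 1 (FDR = 0.0665). Irf8, a myeloid factor, had 4 higher and 2 lower of 45 peaks. Its strongest gain, 79665 bp from the start on chr8:120817904-120818704, held 0 and 2.87 in WT and 13.7 and 33.98 in SgshKO, with the SgshKO libraries apart from each other (log2 change 3.53, SE 0.73, limma FDR = 0.000787). The Irf8 and Smad3 calls were lost with no mean trend (FDR = 0.0737 and 0.0606).

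Phagocytic and pattern-recognition receptors split by gene. Over this list 38 of 220 tested peaks were called higher and 15 lower (17.3% and 6.82%, against 6.87% and 6.25% of all peaks). The share of lower calls was thus near that of all peaks. The median of the list stood only 0.04 above that of all peaks. It turned below that of all peaks without WT replicate 2 (−0.00471) or SgshKO replicate 2 (−0.03). The counts were 27 and 23 under scaling by library total and 28 and 6 without WT replicate 2. Tlr2, a receptor for bacterial lipoproteins, was higher at 8 of 16 peaks, Itgb2, the beta chain of the complement receptor integrins, at 4 of 12 and Cd300lf at 4 of 4. A window of Cd300lb, an activating receptor of the same family as Cd300lf, held 13.5 and 7.18 in WT and 68.5 and 71.8 in SgshKO on chr11:114933435-114934235 (log2 change 2.71, SE 0.36, limma FDR = 7.57e-07). Fcgr2b, the inhibitory Fc-gamma receptor, held 25.1 and 22.98 in WT and 137 and 98.1 in SgshKO on chr1:170952975-170953775 (log2 change 2.22, SE 0.30, limma FDR = 8.65e-07). The start-site peak of Cd300lf held 107 and 87.6 in WT and 162 and 175 in SgshKO (log2 change 0.79, SE 0.19, limma FDR = 0.00268). The Cd300lf call was lost with no mean trend (FDR = 0.0986), under scaling by library total (FDR = 0.118) and without WT replicate 2 (FDR = 0.0786). Losses lay at Cd14 (5 of 6), the co-receptor for lipopolysaccharide, whose strongest window went from 347 and 329.6 in WT to 169 and 238 in SgshKO and fell by 0.75 on the log2 scale (SE 0.15, limma FDR = 0.000510). That call was lost without SgshKO replicate 1 (FDR = 0.0559) and with no mean trend (FDR = 0.151). C1qb, a chain of complement C1q, went from 550.3 and 497 in WT to 365 and 376 in SgshKO and fell by 0.50 on the log2 scale (SE 0.11, limma FDR = 0.00147), a call lost without WT replicate 1 (FDR = 0.0595) and with no mean trend (FDR = 0.213).

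Among chemokines and cytokines, 36 of 184 tested peaks were called higher and 10 lower (19.6% and 5.43%, against 6.87% and 6.25% of all peaks). The median stood 0.45 above that of all peaks. Scaling by library total gave 22 and 12, and leaving out WT replicate 2 gave 22 and 0. Gains were at Csf1 (8 of 16), a ligand of the Csf1r receptor, Osm (7 of 9), a cytokine of the family that signals through gp130, Ccl3 (6 of 11), Igf1 (4 of 5) and Ccl4 (3 of 7). The strongest Csf1 window, on chr3:107815893-107816693 and 55824 bp from the start site, held 18.98 and 6.46 in WT and 102 and 136 in SgshKO (log2 change 3.28, SE 0.36, limma FDR = 2.38e-08). It was called in every alternative. At the receptor gene Csf1r, by contrast, the calls were lower. Lower calls were fewer, and their number fell with each library left out, as it did over all peaks. The strongest lower peak of Il6, an inflammatory cytokine, lay on chr5:29947825-29948625, 64889 bp from the start site. It went from 118 and 116 in WT to 81.4 and 48.5 in SgshKO and fell by 0.88 on the log2 scale (SE 0.23, limma FDR = 0.00625). The Il6 call was lost with no mean trend (FDR = 0.142), without WT replicate 1 (FDR = 0.0674), without WT replicate 2 (FDR = 0.0704) and without SgshKO replicate 2 (FDR = 0.216). A window of Ccl9, another chemokine, fell by 0.96 on the log2 scale (SE 0.28, limma FDR = 0.0159), and its call was lost in 5 alternatives, with FDR of up to 0.212.

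Signal-dependent transcription factors were closer to the background. Over this list 49 of 577 tested peaks were called higher and 19 lower (8.49% and 3.29%, against 6.87% and 6.25% of all peaks). The median stood 0.09 above that of all peaks. Under scaling by library total the counts were 27 and 27, and without WT replicate 2 they were 35 and 3. All 5 Bhlhe40 peaks were called higher, as were 8 of 14 of Hif1a, the oxygen-regulated factor, 11 of 83 of Runx1, 5 of 32 of Nfe2l2, the regulator of the antioxidant response, and 4 of 23 of Atf3. The strongest Hif1a window, on chr12:73781563-73782363 and 119361 bp from the start site, held 61.8 and 72.5 in WT and 250.1 and 357 in SgshKO (log2 change 2.14, SE 0.18, limma FDR = 1.12e-10). Lower peaks lay at Fosl2 (6 of 19), an AP-1 subunit, and Klf2 (2 of 15). The Fosl2 window went from 99.2 and 124 in WT to 49.7 and 54.4 in SgshKO and fell by 1.08 on the log2 scale (SE 0.25, limma FDR = 0.00269), and that of Klf2 from 119 and 157 in WT to 66.3 and 72.8 in SgshKO and fell by 0.97 on the log2 scale (SE 0.21, limma FDR = 0.00134). Both calls were lost without WT replicate 2 (FDR = 0.112 and 0.105) and with no mean trend (FDR = 0.0967 and 0.0767).

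The interferon list was near the background for higher calls, and both the interferon and antigen-presentation lists had few lower ones. For interferon-response genes, 7 of 110 tested peaks were called higher and 0 lower (6.36% and 0%, against 6.87% and 6.25% of all peaks), at 4 of 25 genes, and the median stood 0.06 above that of all peaks and turned below it without WT replicate 1 (−0.04). The counts were 5 and 2 under scaling by library total and 3 and 0 without WT replicate 2. Ifit3, an interferon-induced antiviral gene, held 15.9 and 9.34 in WT and 48.3 and 38.8 in SgshKO (log2 change 1.74, SE 0.40, limma FDR = 0.00193), a call lost without WT replicate 2 (FDR = 0.0773). For antigen presentation, 4 of 89 tested peaks were called higher and 2 lower (4.49% and 2.25%). Scaling by library total gave 0 and 4, and leaving out WT replicate 2 gave 1 and 0. Cd86, a co-stimulatory ligand, held 75.9 and 76.8 in WT and 155 and 127 in SgshKO (log2 change 0.87, SE 0.22, limma FDR = 0.00476), and its call was lost with no mean trend (FDR = 0.129), under scaling by library total (FDR = 0.0958) and without SgshKO replicate 1 (FDR = 0.0679). A window of Ciita, the master regulator of MHC class II genes, had a log2 change of 1.77 (limma FDR = 0.0372) and lost its call in 9 of 15 alternatives. Cd74, the invariant chain, went from 109.6 and 104 in WT to 59.1 and 54.4 in SgshKO and fell by 0.90 on the log2 scale (SE 0.23, limma FDR = 0.00663). The Cd74 call was lost with no mean trend (FDR = 0.0710), without WT replicate 1 (FDR = 0.0895), without WT replicate 2 (FDR = 0.0702) and without SgshKO replicate 2 (FDR = 0.0508).

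Changed peaks clustered at some genes, many of them on none of the lists. The median gene had 3 tested peaks, and 172 genes had at least 5 higher peaks, 167 at least 5 lower peaks and 1 both. Without WT replicate 2 these numbers were 116 for higher and 29 for lower peaks. Rassf3, of the Ras-association domain family, had most, with 22 of 31 higher and none lower. The median level over its peaks was 29.4 and 28.01 in WT and 62.0 and 72.8 in SgshKO. Tmem154, a transmembrane protein, was higher at 17 of 19 peaks, and the median level over its peaks was 9.79 and 11.5 in WT and 59.8 and 53.4 in SgshKO. Rftn1, or raftlin, a protein of lipid rafts, was higher at 20 of 28, with 4.29 and 6.82 in WT and 43.6 and 31.6 in SgshKO. At each of these 3 genes the start-site peak was among those called. The start-site peak of Rassf3 held 62.4 and 63.2 in WT and 116 and 151 in SgshKO (log2 change 1.07, SE 0.23, limma FDR = 0.00145), that of Tmem154 9.79 and 10.8 in WT and 78.6 and 86.4 in SgshKO (log2 change 2.89, SE 0.36, limma FDR = 2.55e-07), and that of Rftn1 24.5 and 16.5 in WT and 146 and 117 in SgshKO (log2 change 2.64, SE 0.31, limma FDR = 1.08e-07). The Rassf3 start-site call was lost with no mean trend (FDR = 0.109). Gse1, a nuclear coiled-coil protein, was higher at 18 of 44 peaks, Abca1 at 17 of 30 and Zmiz1, a transcriptional coactivator, at 16 of 49. Without WT replicate 2 the higher peaks numbered 19 at Rassf3, 14 at Tmem154, 17 at Rftn1, 10 at Gse1, 5 at Abca1 and 5 at Zmiz1. The start-site peak of Gse1 held 79.6 and 101 in WT and 198 and 176 in SgshKO (log2 change 1.05, SE 0.20, limma FDR = 0.000209), a call lost with no mean trend (FDR = 0.0731), while those of Abca1 and Zmiz1 were not called (limma FDR = 0.867 and 0.546).

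The genes with most lower peaks were Sall1 (24 of 57), Selplg (19 of 22), Rhob (17 of 39), a small GTPase of endosomes, Frmd4a (17 of 76), a FERM-domain scaffold, Pmepa1 (16 of 73), a TGF-beta-induced gene whose product restrains SMAD signalling, and Srgap2 (15 of 41), a GTPase-activating protein. None of them had more than 1 higher peak. With WT replicate 2 left out, the lower peaks numbered 10 at Sall1, 17 at Selplg, 4 at Rhob, 2 at Frmd4a, 1 at Pmepa1 and 7 at Srgap2. The median level over the Selplg peaks was 174 and 166 in WT and 71.3 and 78.6 in SgshKO, and over the Sall1 peaks 138 and 135 in WT and 105 and 97.1 in SgshKO. Over the Rhob peaks it was 50.2 and 63.9 in WT and 25.9 and 15.5 in SgshKO, although its start-site peak held 228 and 182 in WT and 182 and 178 in SgshKO and was not called (limma FDR = 0.581). At Rhob, Frmd4a, Pmepa1 and Srgap2 the losses thus lay away from the start site, whose peaks had a limma FDR of 0.105 at Frmd4a, 0.281 at Pmepa1 and 0.775 at Srgap2. Of genes with at least 5 higher peaks and a start-site peak within 1 kb, 71 of 158 (44.9%) had that peak called higher. Of genes with at least 5 lower peaks, 45 of 156 (28.8%) had it called lower. Over all peaks within 1 kb of a start site the shares were 3.82% and 3.56%. The genes were chosen by their called peaks, the start-site peak among them, so these shares are descriptions.

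**Figure D4:**
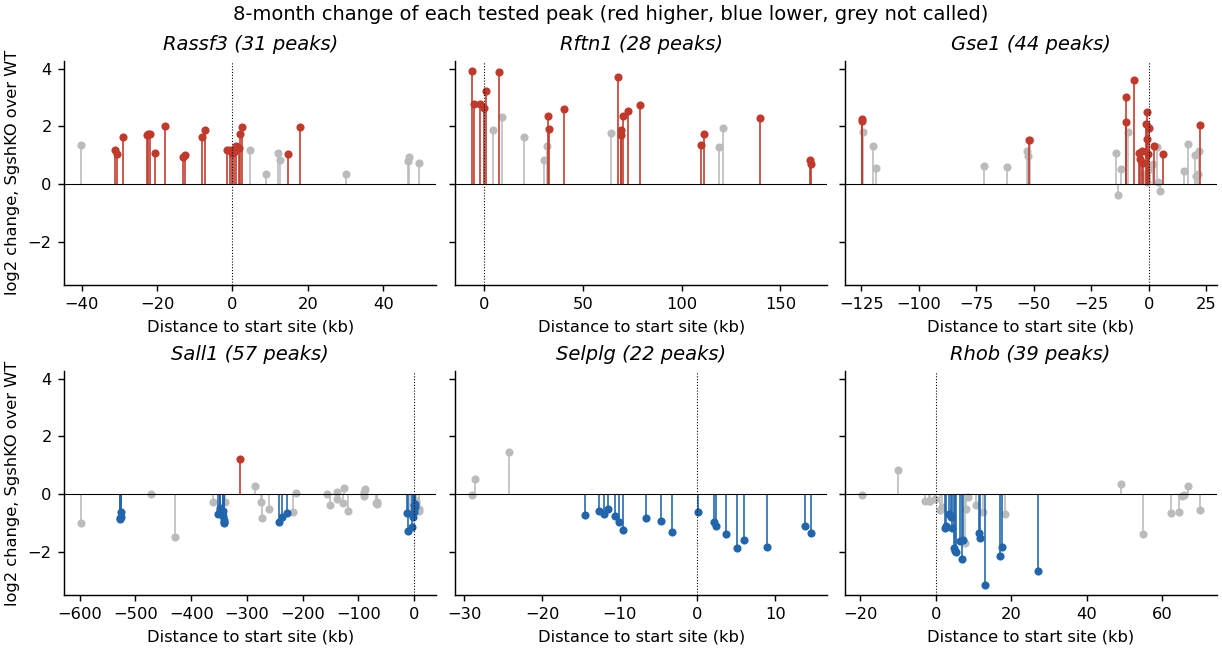
Log2 change of every tested peak (SgshKO over WT, 8 months) against its distance from the start site, in kb, for 6 genes with many called peaks; red points are called higher, blue lower, and grey not called. At Rassf3, Rftn1 and Gse1 all called peaks (22, 20 and 18) lie above 0, at Selplg and Rhob all (19 and 17) lie below 0, and at Sall1 24 lie below and 1 above.

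Gains and losses could also lie side by side. In windows of 1 Mb, 1 bin was among the 3 with most higher and the 3 with most lower peaks. It began at 113 Mb on chromosome 5, with 29 higher and 34 lower of 161 tested peaks (17 and 23 without WT replicate 2). The gains lay mostly at Coro1c (11 of 21), an actin-binding coronin, 2900026A02Rik (9 of 23) and Grk3 (5 of 9), a receptor kinase. The losses lay mostly at Selplg (19 of 22), Tmem119 (10 of 19) and Iscu (4 of 11). No gene of this bin had calls in both directions. At 120 Mb on chromosome 8, 30 of 160 peaks were higher, of which 18 were nearest Gse1 and 4 nearest Irf8. At 50 Mb on chromosome 17, 27 of 97 were higher, at Rftn1 and Plcl2 (7 of 37), while the neighbouring Btg3, an antiproliferative gene, was lower at 7 of 29. The most lower peaks were at 80 Mb on chromosome 7, with 41 of 206, nearest Zfp710 (14), Gm21057 (13), Idh2, the mitochondrial isocitrate dehydrogenase (5), and Sema4b (5). In the same bin, 2 peaks of Furin and 2 of Blm were higher. At 89 Mb on chromosome 8, 27 of 66 peaks were lower, 24 of them nearest Sall1. Without WT replicate 2, the higher peaks numbered 18 in the bin of Gse1 and 22 in that of Rftn1, and the lower peaks 9 in the bin of Zfp710 and 10 in that of Sall1. Around Sgsh itself, on chromosome 11, 84 of 891 peaks within 5 Mb were higher (9.43%) and 45 lower (5.05%). The Gaa, Cd300lf and Cd300lb windows given above lie within this distance, and the part of the altered locus in their gains was not tested. At 5 to 25 Mb from Sgsh, 5.17% of 1316 peaks were higher and 7.45% lower, and farther out 6.18% and 6.04% of 3462.

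MITF, TFEB and TFE3 ChIP was compared over the same peaks, in windows of 200 bp at the same centres. The deposited factor values are 1 merged pool for each factor and genotype, with no labelled age, so they have no replicate error and no test. At distal peaks in SgshKO, the median log2 ratio of MITF over input (each plus 1 tag per 10M) was 3.13, 1.66 and 1.51 at peaks called higher, lower and not called for H3K27ac. For TFEB these medians were 2.25, 0.81 and 0.31, and for TFE3 4.00, 2.79 and 2.59. In WT they were 0.57, 0.72 and 0.29 for MITF, 0.73, 0.83 and 0.50 for TFEB and 1.56, 1.55 and 1.07 for TFE3. Higher peaks thus had the most factor signal in the SgshKO pools, for all 3 factors, whereas in the WT pools higher and lower peaks lay close together. The share of distal peaks with at least 4-fold MITF over input in SgshKO was 66.0% at higher, 45.8% at lower and 43.2% at uncalled peaks. The input itself differed: its median over distal peaks was 3.47, 7.96 and 4.49 tags per 10M in WT, and 1.98, 1.98 and 1.49 in SgshKO, and its part in these ratios was not tested. Within 1 kb of start sites the SgshKO medians of MITF were 2.47 at higher, 1.90 at lower and 1.92 at uncalled peaks.

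Named sites differed in factor signal. The Hpse window with the strongest H3K27ac gain held 4.38 tags per 10M in the WT pool and 334 in the SgshKO pool for MITF, 7.03 and 254 for TFEB, and 40.05 and 514 for TFE3. The input there was 0.2 and 3.97. The Fnip2 window held 65.3 in WT and 574 in SgshKO for MITF, and 85.4 and 1051 for TFE3. The distal Slc11a2 window held 2.92 and 249.1 for MITF, that of Cdh4 0 and 153, and that of Nceh1 14.2 and 204. At these 5 sites the SgshKO pools stood far above input. Other strong gains of H3K27ac had less MITF signal at the centre of the window. The Bhlhe40 promoter window held 0 and 3.40 for MITF against an SgshKO input of 13.1, and the Cd63 window 1.46 and 0. The Rxra window held 13.9 and 23.8, and the Tfeb window 5.48 and 18.5. For TFE3 the WT and SgshKO pools held 0 and 17.8 at Bhlhe40, 1.40 and 15.9 at Cd63, 1.96 and 33.25 at Rxra, and 2.24 and 3.87 at Tfeb. The SgshKO input was 0 at Cd63 and 5.95 at Rxra. Of the promoters shown above, the start-site window of Apoe held 49.6 and 323 for MITF, that of Rragc 99.7 and 279, and that of Fnip1 9.86 and 65.1. The Cst7 window held 21.2 and 54.3, and the Rragd window 0.370 and 7.72.

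**Figure D5:**
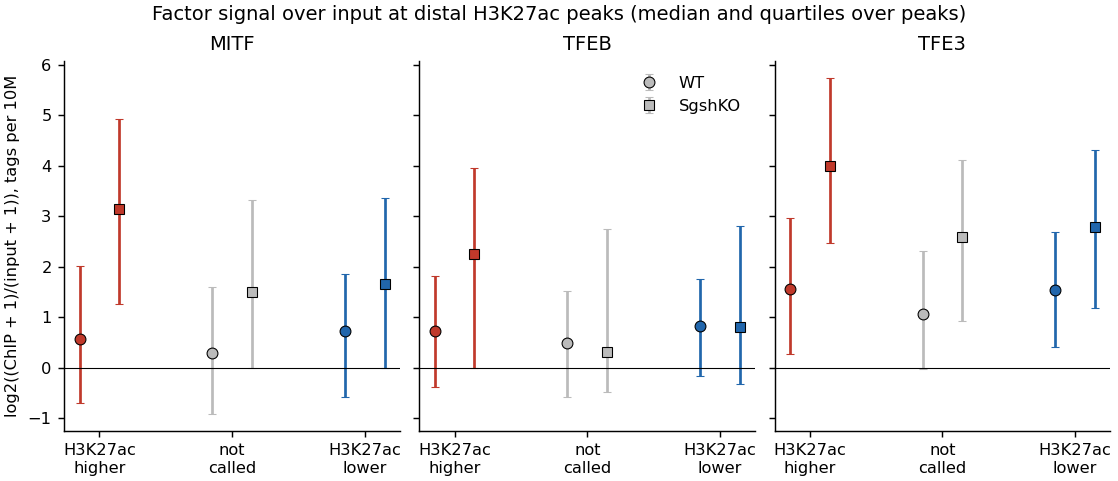
Log2 ratio of factor ChIP over input at distal peaks (over 10 kb from a start site) called higher, lower or not called for H3K27ac at 8 months, for MITF, TFEB and TFE3 in the WT and SgshKO pools; points are medians over peaks and bars span the quartiles of the peaks, not replicates. In the SgshKO pools the medians at higher peaks (3.13 for MITF, 2.25 for TFEB and 4.00 for TFE3) lie above those at lower and uncalled peaks.

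The same peaks were read at 4 months in separate libraries of both genotypes. Of the peaks called higher at 8 months, 97.8% had a 4-month change of the same sign and 3163 were called higher there too, at an age when 7.87% of all peaks were called higher. Of the peaks called lower, 92.8% had the same sign and 1511 were called, against 4.32% of all peaks. The median 4-month log2 change was 1.23 over the higher and −0.53 over the lower peaks, next to 1.46 and −0.91 at 8 months. Since the 8-month values chose these peaks, smaller 4-month values can follow from the choice alone and are not read as a change with age. The genotype by age interaction, which tests the difference between ages itself, was called at no peak by limma, edgeR or DESeq2. In limma 4507 peaks had an unadjusted p below 0.05, and the smallest FDR was 0.398. The Bhlhe40 promoter peak already stood at 13.1 in WT and 105 in SgshKO, log2 change 2.92, limma FDR = 5.02e-09 at 4 months. The strongest Hpse window stood at 4.34 in WT and 164 in SgshKO, log2 change 4.96, limma FDR = 1.28e-12. The Cdh4 window held 0 in both WT libraries and a mean of 127 in SgshKO (limma FDR = 1.28e-12). These gains were thus present at both ages. Kcnk12 stood at 187 in WT and 54.4 in SgshKO, log2 change −1.83, limma FDR = 9.47e-07, and the strongest Selplg window at 316 in WT and 176 in SgshKO, log2 change −0.84, limma FDR = 0.000135. At the genes with most 8-month losses, the 4-month lower peaks numbered 9 at Sall1, 15 at Selplg, 4 at Rhob, 8 at Frmd4a, 10 at Pmepa1 and 4 at Srgap2. For the genes with most gains, the 4-month higher peaks numbered 19 at Rassf3, 24 at Rftn1, 17 at Tmem154, 16 at Abca1, 20 at Zmiz1 and 11 at Gse1. Counts at the 2 ages do not show a difference between them, which at no peak passed the interaction test.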

How the data were processed

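The authors deposited 1 table of microglial H3K27ac windows, annotated with HOMER per the file headers, whose values are signal in tags per 10M tags of each library. Bowtie2, HOMER, DESeq2 and the build mm10 are named in the submitters' processing notes, with no version. Each factor table holds merged pools, also as deposited signal. Whole tags were recovered from the size of 1 tag in each library, and 20 value columns of the tables were not used. As the unit is signal, limma was the main test and count tools were alternatives. Groups came from the sample labels.

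Tags were scaled by TMM, windows with few tags were removed with filterByExpr, and limma with a mean trend was fitted to log2(scaled tags per 10M + 1) over 8 ChIP libraries in 4 groups of 2, with 4 residual degrees of freedom. P-values were adjusted by Benjamini-Hochberg over all tested windows (threshold 0.05). The fit was tested on simulated data. Alternatives were other scalings, pseudocounts 0.5 and 5, no filter, no mean trend, input subtraction, only the 8-month libraries, a replicate block, edgeR, DESeq2, an FDR of 0.01 and each library left out. Tools were R 4.3.3, edgeR 4.0.16, limma 3.58.1, DESeq2 1.42.0, Python 3.11.15, pandas 2.3.3 and numpy 2.4.6.

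Named peaks were called, did not overlap between groups and lay nearest a named gene (no Rik, Gm, Mir or similar name). They were the 6 promoter peaks in each direction with the smallest p, the 5 distal peaks in each direction with the largest change and a level of at least 50, and the 2 peaks in each direction of each list with the smallest p, which the text calls strongest. The 6 genes with most peaks and the 3 bins of 1 Mb with most peaks in each direction were taken too. Start-site peaks of other genes, genes within bins and genes given by counts alone were chosen after their values were seen. Members and lists were chosen with earlier results of these data known. Promoter sequences came from RefSeq, build GRCm38.p6. Results for a few genes that these rules name are not reported here.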

Additional observations from a re-analysis of the deposited data

How the results depend on the processing

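The number of called peaks depended on the processing. Of the 9135 called peaks, 8 changed sign after input subtraction, and 0 in each other alternative tried. Scaling by library total left 2783 peaks called higher and 6354 lower (30.5% of calls higher). With no mean trend, 2273 peaks were called, 1701 higher and 572 lower (74.8% higher), with 282 at promoters and 1430 distal. After input subtraction 4503 were called, 2315 higher and 2188 lower, with 670 at promoters and 2644 distal. DESeq2 called 4065 higher and 2826 lower (59.0% higher), and an FDR of 0.01 left 4931, 2890 higher and 2041 lower. Leaving out 1 library at a time, where the lone sample of a group is assumed to vary like the other groups, gave 3954 to 6671 called peaks, 2704 to 3378 higher and 1250 to 3293 lower, with 568 to 1083 at promoters and 2342 to 3832 distal. Calls higher made up 68.4% without WT replicate 2 and 61.7% without WT replicate 1. The cause was not tested. The genotype by age interaction was called at 1 peak with a pseudocount of 5 and at 0 to 1 with a library left out. The inputs gave 0 calls in each alternative run on them.

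With the replicate number as a term (replicate block), 9351 peaks were called, 4892 higher and 4459 lower, and 2 for the interaction. Deviations of same-numbered libraries from their group means correlated at 0.00295 at 4 months and −0.0199 at 8 months, so the numbers were not read as pairs.

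Of 105 named peaks, 98 were called and 45 of these in every alternative. Over 1575 alternative values, 1411 kept direction and side of the threshold, 156 lost the call, 2 gained it and 6 changed sign, all at uncalled start sites. Trem2 turned to −0.15 under library total and ranged from −0.045 to 0.22 with a library left out, Tfeb turned to −0.15 under library total, and Abca1 to 0.021 under quantile normalization and ranged from −0.14 to 0.035 with a library left out. The median of a list relative to all peaks changed sign in 22 of 345 alternative values, in the autophagy, phagocytic, interferon, oligodendrocyte, astrocyte, endothelial and sex-linked lists. With 2 libraries a genotype and WT levels of a few tags at many gained sites, folds there are imprecise.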
